A study of Mus musculus with 9 samples.

Results

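Angptl1, Angptl2, Angptl4, Angptl6 and Angptl7, 5 angiopoietin-like genes, and the angiopoietin gene Angpt1 were followed through total RNA-seq of the mouse gastrocnemius, the large calf muscle. They are 6 of 49542 named gene rows in the count table and were taken by their symbols. The set was chosen because Angptl7 was low in both limbs of irradiated mice, so the values of Angptl7 against unirradiated mice are given as a description, with no test. All mice were C57Bl6J, and tissue was taken at about 8 weeks of age. RL is the limb irradiated at 4 weeks of age with 8.2 Gy in each of 3 sessions and dissected 3 weeks later. CL is the contralateral limb of the same mice, and CTL is the muscle of unirradiated mice (0 Gy). Each group has 3 libraries, and RL and CL libraries of the same number come from 1 mouse, so that 6 mice stand behind the 9 libraries. The dose that reached CL is not given in the sources used here.

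Angiopoietins and angiopoietin-like proteins are secreted glycoproteins that share a coiled-coil region and a fibrinogen-like end. Angiopoietins bind the endothelial receptor TIE2, encoded by Tek, and Angpt1 is its activating ligand, made by cells around vessels and known for keeping vessels quiescent. The angiopoietin-like proteins do not bind TIE2 and act through other partners. Angptl4 inhibits lipoprotein lipase and so sets how much fat from the blood enters muscle and adipose tissue, while Angptl7 is best known from the cornea and the outflow tissue of the eye, where it is tied to the extracellular matrix.

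Libraries held 30.8 to 44.6 M counts, of which mitochondrial genes took 31.1% to 51.8% and Ttn, which encodes titin, 10.5% to 18.1%. The summed level of 8 myofibre markers was 156393 to 185980 CPM in RL, 163598 to 208365 CPM in CL and 208605 to 231782 CPM in CTL, so the tissue matched its label in every library. CPM is the count scaled to a common library total, after edgeR's TMM correction of the totals. CL 1 stood apart. Its median correlation with the other libraries was 0.969, against 0.979 to 0.987 for the other 8, and 7 lymphocyte markers summed to 19.3 CPM in it, against 0.0892 to 0.486 CPM in the other 8. Results that turn on CL 1 are therefore given with and without it.

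The sequence before the gene start is shown for Angptl7, the member that was low in both limbs, and for Angptl2, the member with the most reads. Both runs are the 250 bases before the RefSeq start on GRCm38.p6, read on the strand of the gene, and capitals mark every CANNTG (E-box) and every GGGCGG or its complement CCGCCC (SP1 box).
Angptl7 (chr4:148500463-148500712, minus strand): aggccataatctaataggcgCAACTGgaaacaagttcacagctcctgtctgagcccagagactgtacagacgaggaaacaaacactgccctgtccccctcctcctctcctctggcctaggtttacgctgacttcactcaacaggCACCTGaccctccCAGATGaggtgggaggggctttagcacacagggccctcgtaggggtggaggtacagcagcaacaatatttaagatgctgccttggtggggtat
Angptl2 (chr2:33215711-33215960, plus strand): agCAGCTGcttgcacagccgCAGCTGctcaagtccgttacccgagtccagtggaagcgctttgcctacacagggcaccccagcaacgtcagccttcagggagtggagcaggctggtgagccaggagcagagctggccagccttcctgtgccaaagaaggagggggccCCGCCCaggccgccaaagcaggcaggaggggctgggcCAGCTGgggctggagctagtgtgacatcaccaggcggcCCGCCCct
The Angptl7 run holds 3 E-boxes, at positions -230, -106 and -93 from the start, and no SP1 box. The Angptl2 run holds 3 E-boxes, at -248, -230 and -46, and 2 SP1 boxes, at -83 and -8. RefSeq windows from 250 bases before to 50 after the start were matched for 4 of the 6 genes. All 300 bases of the Angptl1 window lie in exons of Angptl1 in GENCODE vM21, where the gene starts further upstream. In these windows Angptl1 and Angptl6 had 1 E-box each. None of the 4 held the TATA box TATAAA on the strand of the gene, the only strand searched for it. On either strand none held the glucocorticoid receptor half-site AGAACA or the hypoxia motif ACGTG. Of 32851 promoter windows of the same length, searched in the same way, 72.3% held an E-box, 35.7% an SP1 box, 8.32% the TATA box, 18.97% the glucocorticoid half-site and 19.6% the hypoxia motif. The Angptl7 window had 4 CpG and the Angptl2 window 9, beside a median of 7 over all windows. These matches describe letters and show no bound factor.

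Angptl7 lies on the minus strand of chromosome 4 (148495183 to 148500460 on GRCm38, GENCODE vM21), wholly inside Mtor, the gene of the mTOR kinase on the other strand, and shares no exon base with it. Angptl7 had 9.83, 9.99 and 11.4 CPM in RL 1 to 3 and 7.98, 15.8 and 12.4 CPM in CL 1 to 3, against 25.2, 19.9 and 29.0 CPM in CTL 1 to 3. All 6 libraries of irradiated mice lay below all 3 CTL libraries, which is what the gene was chosen for. Behind these levels stood 384 to 468 counts in RL, 388 to 651 in CL and 707 to 1005 in CTL. Set against the CTL mean, RL stood at 39.8%, 40.4% and 46.0% and CL at 32.3%, 63.7% and 50.1%. The fitted log2 difference was -1.25 ± 0.21 (SE) for RL against CTL and -1.04 ± 0.21 for CL against CTL, and -0.81 for CL without CL 1. Ordered by log2 difference, Angptl7 was number 48 from the lowest of 14989 tested genes in RL against CTL and number 35 in CL against CTL. Both comparisons share the CTL libraries. Over all tested genes, 2.98% had every RL and every CL library below every CTL library. In bulk tissue, fewer cells that make a transcript and less transcript per cell cannot be told apart.

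**Figure D1:**
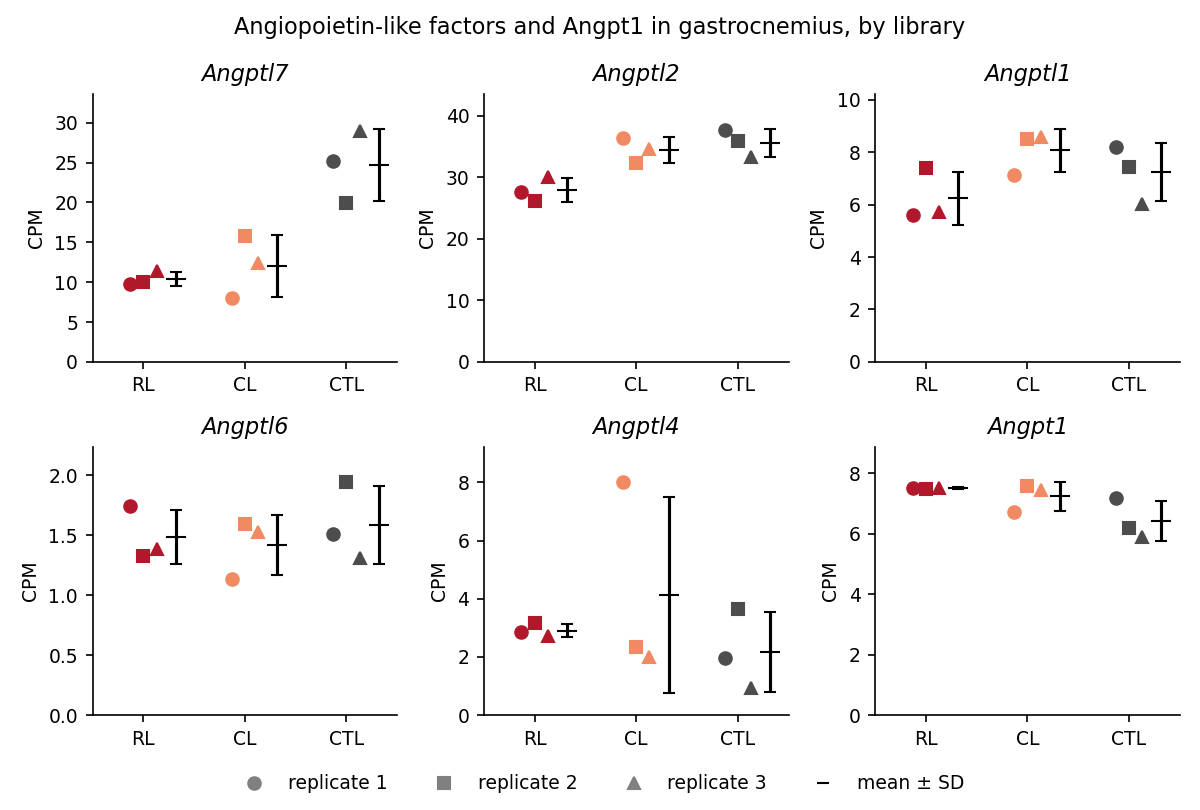
CPM of the 6 genes (vertical axis, starting at 0) in each of the 9 libraries, with RL left of CL and CTL; symbols give the replicate number, which in RL and CL marks a mouse, and bars give the mean and SD of 3 libraries. Angptl7 averaged 10.4 CPM in RL and 12.04 CPM in CL against 24.7 CPM in CTL, and the highest Angptl4 value is that of CL 1.

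Between the limbs of the irradiated mice Angptl7 did not pass the test. The gene was chosen on low levels in both limbs, so this comparison is not independent of the choice. Angptl7 averaged 10.4 ± 0.843 CPM in RL and 12.04 ± 3.90 CPM in CL (SD, n = 3 each). The log2 difference was -0.21 ± 0.21 (SE), with a 95% interval from -0.67 to 0.25 and an adjusted p of 0.999 by edgeR's quasi-likelihood test over all 14989 genes. Within mice, RL minus CL was 0.30, -0.65 and -0.12 on the log2 scale, so the limbs differed in both directions. The interval leaves room for an RL level well below that of CL, and without CL 1 the log2 difference was -0.42 with an edgeR adjusted p of 0.425. Without CL 2 the sign turned, at 0.034.

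The gene around Angptl7 was read as a check, since the strand setting of the counting is not given. Mtor had 29.3 to 39.5 CPM in RL and 34.7 to 39.3 CPM in CL, against 34.6 to 41.9 CPM in CTL, and the groups overlapped. Its log2 difference was -0.17 ± 0.13 (SE) for RL against CTL, with an edgeR adjusted p of 0.671, and -0.097 for CL against CTL.

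Summed markers of several cell types were read beside Angptl7. The 8 myofibre markers above summed to less in all RL and CL libraries than in CTL. Most of this sum was Ttn, with 116218 CPM on average in RL, 126883 CPM in CL and 151660 CPM in CTL. Gene by gene, edgeR called 0 of the 8 in either limb against CTL. At an unadjusted edgeR p under 0.05, 6 were lower in RL, beside 12.0% of all tested genes, and 0 in CL, beside 6.65%. The 10 tenocyte markers, none at 0 in any library, summed to 93.4 to 107 CPM in RL and 137 to 151 CPM in CL, against 138 to 192 CPM in CTL. Their sum in RL lay below CTL, while that in CL overlapped it. Taken gene by gene, the median log2 difference of the 10 was -0.84 in RL and -0.38 in CL, each against CTL. In RL against CTL edgeR called 2 of the 10 lower, beside 0.18% of all tested genes. At an unadjusted edgeR p under 0.05, 8 were lower and 0 higher in RL, beside 12.0% of all tested genes. In CL against CTL edgeR called 0 of the 10. There 5 were lower and 0 higher at an unadjusted edgeR p under 0.05, beside 6.65% of all tested genes. The 10 Schwann and perineurial markers summed to 41.0 to 60.2 CPM in RL and 51.5 to 68.4 CPM in CL, against 62.8 to 69.2 CPM in CTL. The 10 markers of fibro-adipogenic progenitors, the matrix-forming cells of muscle, ran from 1152 to 1338 CPM in RL and from 1201 to 2180 CPM in CL, against 1019 to 1420 CPM in CTL. The 6 satellite cell markers summed to 12.9 to 15.0 CPM in RL and 18.8 to 23.9 CPM in CL, against 18.9 to 21.4 CPM in CTL, and the 8 pericyte and smooth muscle markers to 555 to 606 CPM in RL and 532 to 667 CPM in CL, against 655 to 698 CPM in CTL. The part of these markers in the Angptl7 levels was not tested.

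Angptl2, a factor secreted by adipose and stromal cells and known for a role in inflammation, had the highest CPM of the 6 genes. It lies at chr2:33216069-33247717 on the plus strand, inside Ralgps1 on the other strand with no shared exon base. It had 27.6, 26.1 and 30.1 CPM in RL and 36.4, 32.3 and 34.5 CPM in CL, against 37.7, 35.9 and 33.2 CPM in CTL. Every RL library lay below every CL and CTL library, while CL and CTL overlapped. Against CTL, RL differed by -0.35 ± 0.10 (SE) on the log2 scale, with a 95% interval from -0.57 to -0.13, and edgeR's adjusted p was 0.159, so the gene did not pass the test. Over the alternatives to this fit the log2 difference stayed between -0.40 and -0.30 and the adjusted p between 0.0754 and 0.410. Groups lay apart in this way for 10.2% of tested genes in RL against CTL, counting only lower genes, and 2.04% of genes had RL below all CL and CTL libraries.

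Against the other limb, RL differed from CL in Angptl2 by -0.30 ± 0.10 (SE), with a 95% interval from -0.52 to -0.081. The unadjusted edgeR p was 0.0116 and the adjusted p 0.900. Each of the 3 mice had the lower level in RL, by -0.40, -0.31 and -0.20 on the log2 scale. CL against CTL gave -0.050 ± 0.10 (SE), with a 95% interval from -0.27 to 0.17 and an edgeR adjusted p of 0.955. Without CL 1, RL minus CL was -0.24 with an edgeR adjusted p of 0.583.

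Angptl1, a secreted factor reported to restrain vessel growth, did not pass any of the tests. It lies at chr1:156838562-156861078 on the plus strand and had 5.61, 7.40 and 5.71 CPM in RL and 7.12, 8.52 and 8.59 CPM in CL, against 8.21, 7.44 and 6.04 CPM in CTL. Each RL library was lower than the CL library of its mouse, by -0.34, -0.20 and -0.59 on the log2 scale, although the highest RL value exceeded the lowest CL value. RL minus CL was -0.37 ± 0.15 (SE), with a 95% interval from -0.70 to -0.039, an unadjusted edgeR p of 0.0314 and an adjusted p of 0.999. Without CL 1 the difference was -0.44 with an edgeR adjusted p of 0.376. Against CTL, RL gave -0.21 ± 0.15 (SE; edgeR adjusted p = 0.642) and CL gave 0.16 ± 0.15 (SE; edgeR adjusted p = 0.900). With 1 library left out, these ran from -0.35 without RL 2 to -0.11 without CTL 1 for RL, and from 0.040 without CTL 3 to 0.26 without CTL 1 for CL. Angptl1 lies inside Ralgps2 on the opposite strand with no shared exon base, and 16.4% of its exon bases overlap Gm37802, which had at most 0.926 CPM in any library.

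Angptl6, also called angiopoietin-related growth factor, was low and differed little between the groups. It lies at chr9:20873808-20879727 on the minus strand and had 1.74, 1.32 and 1.38 CPM in RL and 1.13, 1.60 and 1.53 CPM in CL, against 1.51, 1.95 and 1.31 CPM in CTL, and all pairs of groups overlapped. RL minus CTL was -0.10 ± 0.23 (SE), with a 95% interval from -0.59 to 0.39 and an edgeR adjusted p of 0.913. RL minus CL was 0.068 ± 0.23 (SE), with an interval from -0.42 to 0.56, and CL minus CTL was -0.17 ± 0.23 (SE; edgeR adjusted p = 0.930). The intervals leave room for differences of either sign, and 16.8% of its exon bases overlap A230050P20Rik on the other strand, which had 0.680 to 1.32 CPM.

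Angptl4, the lipoprotein lipase inhibitor, had the largest spread relative to its mean within CL and within CTL. It lies at chr17:33773750-33781830 on the minus strand and had 2.84, 3.16 and 2.72 CPM in RL and 8.02, 2.35 and 2.01 CPM in CL, against 1.96, 3.64 and 0.922 CPM in CTL. The RL libraries were close together and lay within the CTL range, while CL 1 exceeded all other libraries and CTL 3 was the lowest, with 31 counts. RL minus CTL was 0.42 ± 0.52 (SE), with a 95% interval from -0.72 to 1.56 and an edgeR adjusted p of 0.818, and it was 0.996 without CTL 2 and 0.056 without CTL 3. CL minus CTL was 0.94 ± 0.51 (SE), with an interval from -0.18 to 2.06 and an edgeR adjusted p of 0.787, and without CL 1 it was -0.0033. With no filter on low counts CL minus CTL was 0.93 with an edgeR adjusted p of 2.59e-04. RL minus CL was -0.52 ± 0.50 (SE; edgeR adjusted p = 0.999), and without CL 1 it was 0.43. The sign of both comparisons with CL thus rested on CL 1.

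CL 1 was also the library with the highest sum of 8 adipocyte markers, none of which was at 0 in any library. They summed to 267, 335 and 283 CPM in RL and 478, 315 and 301 CPM in CL, against 318, 298 and 240 CPM in CTL. Among them Plin1, which coats lipid droplets, had 15.5 CPM in CL 1 and 1.46 to 5.90 CPM in the other 8 libraries. Adipoq, Cfd, Fabp4, Retn and Cidec were also highest in CL 1, while Lep and Lpl were not. Lep reached 3.21 CPM in CL, against 3.94 CPM in RL and 5.73 CPM in CTL. Lpl reached 190 CPM in CL and 193 CPM in RL. With group means of 167 to 182 CPM, Lpl made up a large part of the sum. The 3 genes with the profile closest to Angptl4 over the 9 libraries were Socs3, Plin1 and Slc1a3, with root mean square differences of centred log2 CPM from 0.382 to 0.402. The part of adipocyte or lymphocyte RNA in the Angptl4 value of CL 1 was not tested.

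**Figure D2:**
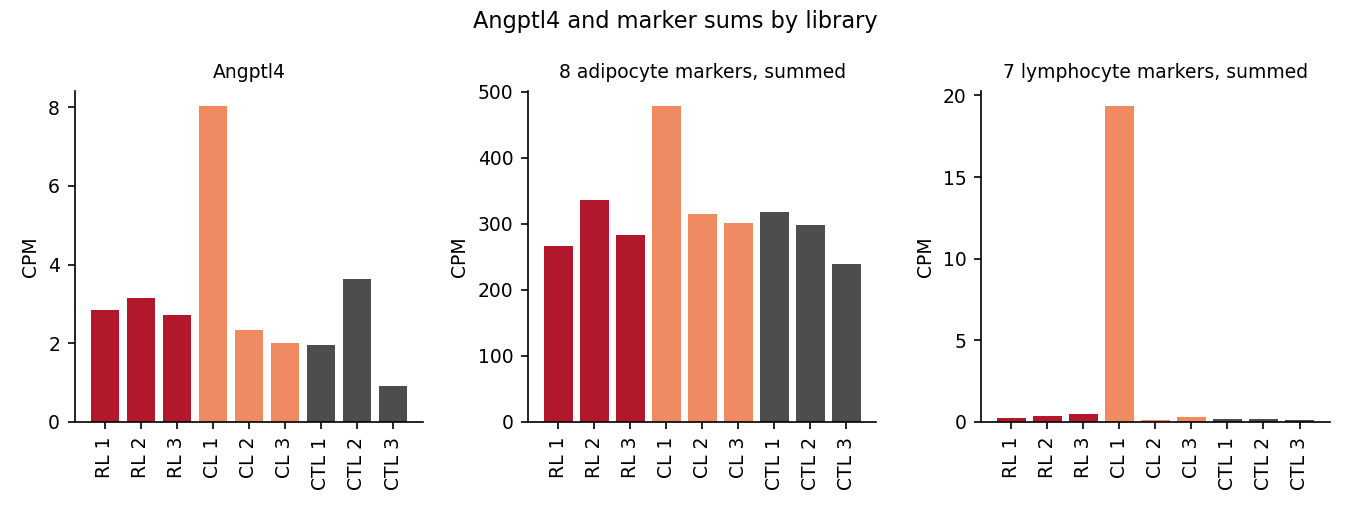
CPM of Angptl4, of 8 adipocyte markers summed and of 7 lymphocyte markers summed (vertical axes, starting at 0), with 1 bar for each of the 9 libraries. CL 1 is highest in all 3 panels, with 8.02, 478 and 19.3 CPM.

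Angpt1, the activating ligand of TIE2, varied little. It lies at chr15:42424723-42676977 on the minus strand and had 7.53, 7.47 and 7.53 CPM in RL and 6.71, 7.60 and 7.44 CPM in CL, against 7.18, 6.20 and 5.89 CPM in CTL. All RL libraries lay above all CTL libraries by a small step, an arrangement found for 10.5% of tested genes, and CL overlapped both. RL minus CTL was 0.22 ± 0.11 (SE), with a 95% interval from -0.024 to 0.47 and an edgeR adjusted p of 0.477. RL minus CL was 0.052 ± 0.11 (SE), with an interval from -0.19 to 0.30, and CL minus CTL was 0.17 ± 0.11 (SE; edgeR adjusted p = 0.840). Of its exon bases 14.2% overlap Gm17473 on the opposite strand, which had 0.103 to 0.294 CPM.

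Angptl7 was chosen on its levels against CTL, so the counts of calls against CTL leave it out. Of the other 5 genes 0 were called in RL against CTL at an edgeR adjusted p under 0.05, beside 0.514% of all tested genes. DESeq2 and limma-voom also called 0 of the 5, and 1, Angptl2, had an unadjusted edgeR p under 0.05, beside 12.0% of all tested genes. In CL against CTL edgeR called 0 of the 5 and 0 of 14989 genes (0%), while 997 genes (6.65%) had an unadjusted p under 0.05, DESeq2 called 16 genes and limma-voom 0. Of the 5 genes other than Angptl7, 0 had an unadjusted edgeR p under 0.05 there and 0 were called by DESeq2 or limma-voom. In RL against CL edgeR called 0 of the 6 genes, beside 0.0734% of all genes. DESeq2, limma-voom and the fit with mouse as a block also called 0 of them, and 2, Angptl1 and Angptl2, had an unadjusted edgeR p under 0.05, beside 4.27% of all genes. The block fit called 0.414% of all genes. Without Angptl7, the median log2 difference of the other 5 genes was -0.099 in RL against CTL, 0.16 in CL against CTL and -0.30 in RL against CL, beside medians of -0.0084, -0.0035 and -0.0070 over all tested genes. Both medians with CL include CL 1. Without CL 1, CL minus CTL was 0.24 for Angptl1, -0.095 for Angptl2, -0.0033 for Angptl4, -0.027 for Angptl6 and 0.22 for Angpt1. Between the limbs, Angptl4 and Angptl6 changed sign without CL 1.

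**Figure D3:**
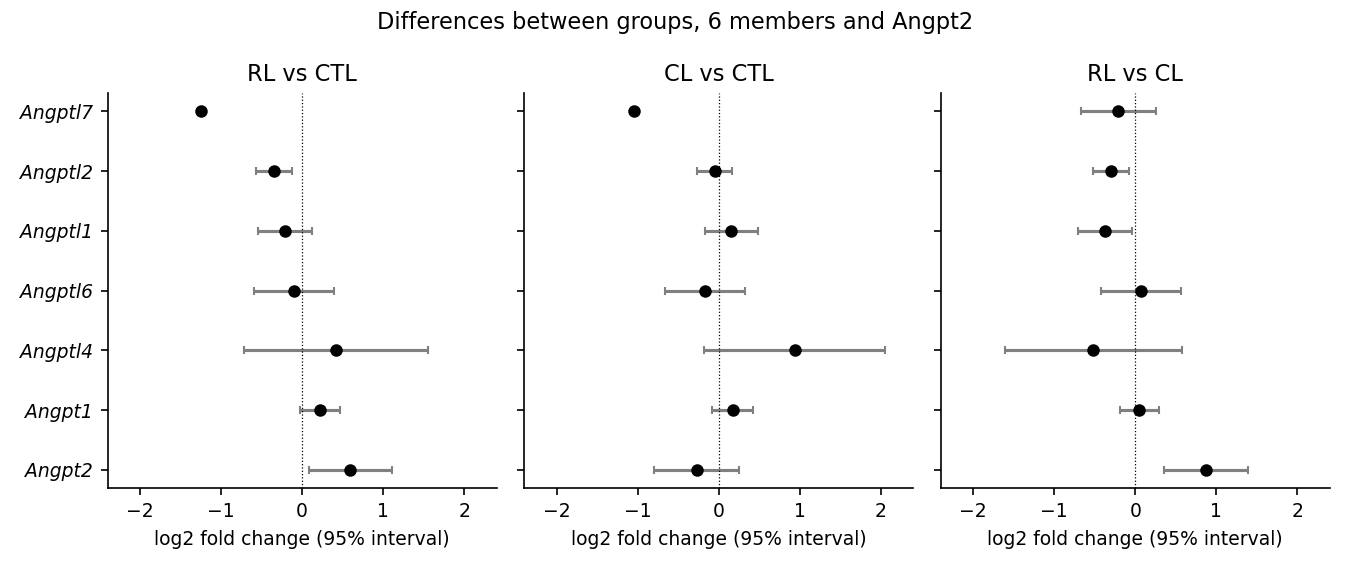
Log2 fold change (horizontal axis) of the 6 genes and of Angpt2 in RL against CTL, CL against CTL and RL against CL; points are edgeR estimates and bars 95% intervals, with none drawn for Angptl7 against CTL, where the gene was chosen. Angptl7 sits at -1.25 and -1.04 against CTL, and at -0.21 between the limbs.

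Compared per length of exon, as CPM per kilobase (RPKM), Angptl7 and Angptl2 were the 2 most abundant members in every group. Angptl7 had 4.82 ± 0.391 RPKM in RL and 5.58 ± 1.81 RPKM in CL, against 11.5 ± 2.11 RPKM in CTL (SD, n = 3 each). Angptl2 had 4.44 ± 0.319 RPKM in RL and 5.47 ± 0.326 RPKM in CL, against 5.67 ± 0.362 RPKM in CTL. Their levels overlapped in RL and in CL, whereas in CTL every Angptl7 value was above every Angptl2 value. The RPKM ratio of Angptl7 to Angptl2 was 1.04, 1.12 and 1.10 in RL and 0.639, 1.42 and 1.05 in CL, against 1.95, 1.62 and 2.55 in CTL.

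Angptl1 came next, with 2.20 ± 0.354 RPKM in RL and 2.84 ± 0.292 RPKM in CL, against 2.55 ± 0.388 RPKM in CTL. Angpt1 followed with 1.44 ± 0.00617 RPKM in RL and 1.39 ± 0.0913 RPKM in CL, against 1.23 ± 0.130 RPKM in CTL. Angptl6, at 0.937 ± 0.143 RPKM in RL, 0.896 ± 0.158 RPKM in CL and 1.00 ± 0.206 RPKM in CTL, overlapped Angptl4 in all 3 groups. Angptl4 had 0.821 ± 0.0642 RPKM in RL and 1.17 ± 0.954 RPKM in CL, against 0.614 ± 0.387 RPKM in CTL. Angptl7 made up 31.9%, 31.8% and 34.8% of the summed RPKM of the 6 genes in RL and 22.8%, 39.3% and 33.3% in CL, against 49.8%, 43.9% and 58.3% in CTL. The other 5 genes together summed to 9.71, 9.92 and 9.88 RPKM in RL and 12.6, 11.3 and 11.5 RPKM in CL, against 11.8, 11.8 and 9.63 RPKM in CTL, so that RL lay below CL and CTL overlapped both.

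**Figure D4:**
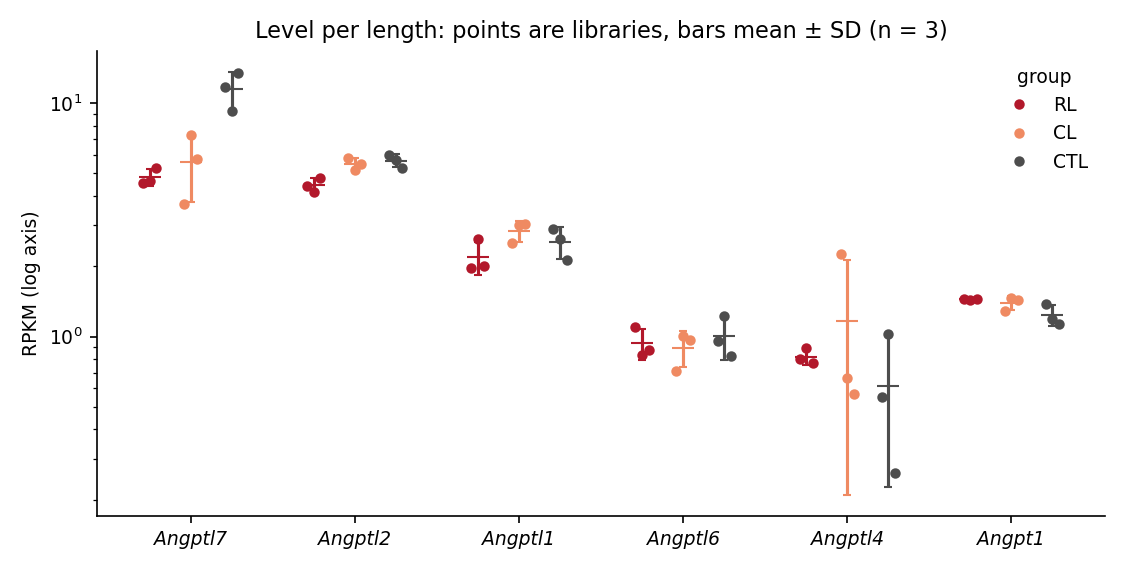
RPKM (log axis) of the 6 genes in each library, with RL left of CL and CTL for each gene; points are libraries and bars the mean and SD of 3. In CTL Angptl7 averaged 11.5 RPKM, above Angptl2 at 5.67 RPKM, while in RL they averaged 4.82 and 4.44 RPKM.

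Genes with the profile closest to Angptl7 were found among 9543 genes as those with the smallest root mean square difference of centred log2 CPM over the 9 libraries. This measure used the values for which Angptl7 was chosen, so the list is a description. The closest were Kcnn2, a calcium-activated potassium channel, at 0.233, Galnt15, of the GalNAc transferase family, at 0.252, and Mid1ip1, a regulator of fatty acid synthesis, at 0.280, beside a median of 0.613 over all candidates. Per3, a circadian clock gene, followed at 0.292, Odf3l2 at 0.296 and the phosphatase gene Dusp14 at 0.303. Galnt15 averaged 7.08 CPM in RL and 8.55 CPM in CL, against 14.1 CPM in CTL. Per3 averaged 22.3 CPM in RL and 23.2 CPM in CL, against 38.5 CPM in CTL. The libraries share the mice, the dissection and the sequencing behind such profiles, and the time of day at which tissue was taken is not given in the sources used here.

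**Figure D5:**
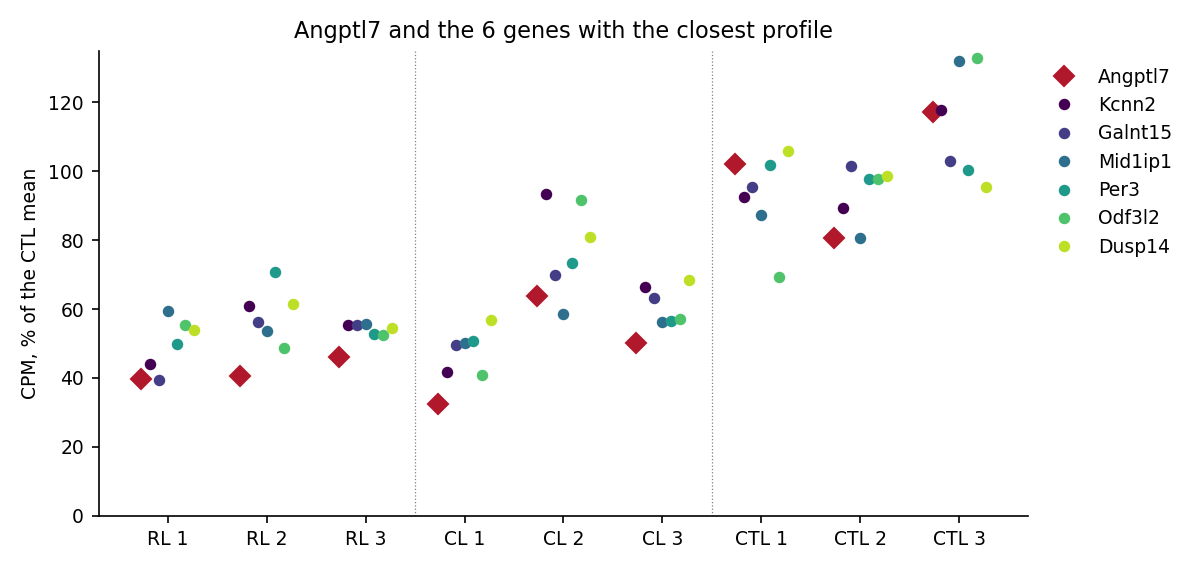
CPM as a percentage of the CTL mean (vertical axis, starting at 0) for Angptl7 (diamonds) and the 6 genes with the closest profile (circles) in each of the 9 libraries. Angptl7 lies between 39.8% and 46.0% in RL, between 32.3% and 63.7% in CL and between 80.6% and 117.3% in CTL.

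The other members lay at 0.551 to 1.28 from Angptl7 by the same measure, beside its median of 0.613 over all candidates. The distance between members was smallest for Angptl1 and Angptl2, at 0.210, and largest for Angptl4 and Angptl7, at 1.28. The median distance to all candidates was 0.270 for Angptl1 and 0.237 for Angptl2, so 0.210 was not far below that of an arbitrary gene. The genes closest to Angptl2 were Ltbp1, which binds latent TGF-beta, Mfge8 and Pde2a, at 0.0632 to 0.0755. For Angptl1 they were Itm2a, Nupr1 and Glt8d2, at 0.0654 to 0.101. For Angpt1 they were Gnai3, Wdr47 and Kdelc2, at 0.0466 to 0.0575. For Angptl6 they were Ndufb10, Cox4i1 and Tceb2, at 0.0876 to 0.0940.

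Angpt2, a gene of the same family outside the 6 and a TIE2 ligand stored in endothelial cells that can oppose Angpt1, had 2.74, 2.11 and 2.70 CPM in RL and 1.75, 0.992 and 1.36 CPM in CL, against 1.86, 1.83 and 1.28 CPM in CTL. Every RL library exceeded every CL and CTL library, an arrangement found for 1.97% of tested genes. RL minus CL was 0.87 ± 0.24 (SE), with a 95% interval from 0.35 to 1.39 and an edgeR adjusted p of 0.574, and RL minus CTL was 0.60 ± 0.24 (SE; edgeR adjusted p = 0.327). Without CL 1 the first of these was 1.12 with an edgeR adjusted p of 0.0519, and with mouse as a block it was 0.89 with an adjusted p of 0.105, so Angpt2 passed neither. With no filter on low counts it was 0.87 and passed, with an edgeR adjusted p of 0.0203. Angpt4 had at most 11 counts and Angptl8 at most 2 in any library, and neither was tested.

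The TIE2 list held 15 genes of the receptors and their signalling, of which 14 were tested. In RL against CTL edgeR called 0 of them, and 3 had an unadjusted edgeR p under 0.05, beside 12.0% of all tested genes. DESeq2 called 1 lower, beside 126 of 14989 genes, and limma-voom called 0. The median log2 difference of the 14 was 0.084. Tek, the receptor itself, had 13.4, 17.6 and 15.1 CPM in RL and 17.1, 22.5 and 20.5 CPM in CL, against 24.7, 24.6 and 19.9 CPM in CTL. Every RL library lay below every CTL library. RL minus CTL was -0.59 ± 0.14 (SE), with an edgeR adjusted p of 0.0927, and Tek was the gene called by DESeq2, with an adjusted p of 0.0137. Without CL 1 the edgeR adjusted p of Tek was 0.0216, in a fit that called 600 of 15146 genes. It was 0.0325 with the 6 libraries of RL and CTL alone and 0.00103 with no filter on low counts. Without any 1 other library it ran from 0.0650 to 0.360, and limma-voom gave an adjusted p of 0.109. The 8 endothelial markers summed to 157 to 193 CPM in RL and 145 to 162 CPM in CL, against 146 to 172 CPM in CTL, and overlapped in all groups.

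Among 8 tested receptors and partners of angiopoietin-like proteins edgeR called 0 in RL against CTL, and 3 had an unadjusted edgeR p under 0.05, beside 12.0% of all tested genes. DESeq2 called 2 higher, beside 225 of 14989 genes, and limma-voom called 0. The DESeq2 calls were Pirb and Lilrb4a, inhibitory receptors of myeloid cells, of which Pirb is known to bind Angptl2. Pirb had 4.25, 2.47 and 3.91 CPM in RL and 4.44, 1.28 and 2.35 CPM in CL, against 1.36, 1.24 and 1.49 CPM in CTL. RL minus CTL was 1.38 ± 0.37 (SE) with an edgeR adjusted p of 0.134 for Pirb, and 1.22 ± 0.35 (SE) with 0.161 for Lilrb4a. The 8 macrophage markers, none at 0 in any library, summed to 95.8 to 133 CPM in RL and 65.0 to 124 CPM in CL, against 53.1 to 76.3 CPM in CTL. Their part in the Pirb and Lilrb4a levels was not tested.

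Lists around Angptl4 showed no call by edgeR in RL against CTL. Of 9 tested genes listed for the lipoprotein lipase axis 0 were called by edgeR, DESeq2 or limma-voom. An unadjusted edgeR p under 0.05 was found for 2, Glul and Gpihbp1, both lower, beside 12.0% of all tested genes. The median log2 difference of the 9 was -0.027. Glul encodes glutamine synthetase and is no gene of this axis, so the count and median are not of the axis alone. Gpihbp1 averaged 6.78 CPM in RL and 6.47 CPM in CL, against 8.89 CPM in CTL. Lpl, the lipase that Angptl4 inhibits, had a log2 difference of 0.11 (edgeR adjusted p = 0.739). PPAR receptors and the glucocorticoid receptor are known to drive Angptl4. Of 16 PPAR receptors and targets and of 12 genes of the glucocorticoid receptor and its targets, 0 were called by edgeR, DESeq2 or limma-voom. An unadjusted edgeR p under 0.05 was found for 0 of either list, with medians of 0.048 and -0.015. Pdk4, a PPAR target, had 0.31 (edgeR adjusted p = 0.515), and Fkbp5, a glucocorticoid target, -0.0025. Of 12 hypoxia genes 0 were called by edgeR or limma-voom and 2 had an unadjusted edgeR p under 0.05, beside 12.0% of all tested genes. Their median was 0.12, and DESeq2 called 1 higher, beside 225 of 14989 genes. That gene was Adm, which encodes the vascular peptide adrenomedullin, with 2.10 ± 0.305 CPM in RL and 0.919 ± 0.178 CPM in CL, against 1.08 ± 0.270 CPM in CTL (SD, n = 3 each), and an edgeR adjusted p of 0.107 against CTL.

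In the list of vascular growth factors and receptors, 1 of 14 tested genes rose and 1 fell in RL against CTL, beside 0.334% higher and 0.18% lower calls over all genes. Apln, the peptide apelin of sprouting endothelium, had 10.8, 4.997 and 9.76 CPM in RL and 2.35, 1.23 and 1.71 CPM in CL, against 1.61, 1.27 and 1.16 CPM in CTL. RL exceeded all CL and CTL libraries, by 2.65 ± 0.31 (SE) on the log2 scale against CTL with an edgeR adjusted p of 0.00854 and by 2.26 ± 0.29 (SE) against CL with 0.0289. Both calls of Apln were lost in some fits. Against CTL the edgeR adjusted p was 0.0702 without RL 3 and 0.0986 without CTL 2, and against CL it was 0.120 with the 6 libraries compared alone, 0.171 without RL 1, 0.271 without RL 3, 0.0798 without CL 2, 0.217 without CL 3, 0.0637 without CTL 2 and 0.0583 without CTL 3. Pdgfrb, the receptor of pericytes and stromal cells, fell to 17.7 ± 0.704 CPM in RL, against 26.7 ± 0.751 CPM in CTL (SD, n = 3 each). Its log2 difference was -0.59 ± 0.10 (SE) with an edgeR adjusted p of 0.0361, and CL lay between them at 22.2 ± 2.60 CPM. Its call was lost without any 1 of the RL or CTL libraries or without CL 3, with edgeR adjusted p-values of 0.0734 to 0.215. Pdgfrb is among the 8 pericyte and smooth muscle markers, whose summed level in every RL library lay below that in every CTL library. Their part in the Pdgfrb level was not tested.

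In CL against CTL edgeR, DESeq2 and limma-voom called 0 genes of these pathway lists. An unadjusted edgeR p under 0.05 was found there for at most 2 genes of a list, beside 6.65% of all tested genes. These were 2 of 8 receptors and partners of angiopoietin-like proteins and 2 of 14 vascular growth factors and receptors. In RL against CL edgeR called Apln alone, beside 11 of 14989 genes, and DESeq2 called Apln and Adm, beside 42. At most 3 genes of a list had an unadjusted edgeR p under 0.05 between the limbs, beside 4.27% of all tested genes. Without CL 1, edgeR also called Tek lower and Dok2, Pirb, Lilrb4a, Adm and Nrp2 higher in RL against CTL, beside 600 of 15146 genes. In RL against CL that fit called Dok2, Lilrb4a, Nrp2 and Apln higher, beside 136 of 15146. The fit with mouse as a block called Apln and Adm between the limbs, beside 62 of 14989.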

How the data were processed

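Libraries were made from column-purified RNA with a stranded kit for total RNA, as the labels' protocols say. Raw counts of reads for each gene were deposited by the authors, together with a log2 fold change and p-values for each comparison. DESeq2 and the build GRCm38.p5 are named in the submitters' processing notes, while the aligner, annotation and strand setting were not given in the sources used here, so overlapping genes are uncertain. Of 49568 rows 26 had a date in place of a name (no more than 0.0536% of the counts of any library) and were left out.

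All 9 libraries were fitted together without covariates with edgeR 4.0.16 (R 4.3.3), using TMM factors and the filter by group, which kept 14989 genes and all 6 members. The quasi-likelihood F test was adjusted by Benjamini-Hochberg over all genes and called at 0.05. The SE is the log2 difference divided by the square root of F. DESeq2 1.42.0 and limma 3.58.1 (voom) were among the alternatives. Exon lengths, coordinates and overlaps are from GENCODE vM21. Replicates of a group are separate mice, and no 2 replicates matched within counting noise (smallest chi-square per degree of freedom 16.8 over 10912 genes). RL and CL libraries are paired by mouse through the labels. The deviations of a mouse's 2 libraries from their group means correlated by 0.295, 0.428 and 0.0731. Members, gene lists, markers and the rule for named genes (all members, overlapping genes, list genes with the smallest p or a call, and closest profiles) were chosen with earlier results of these data known. Lpl, Fkbp5, Adm and Nrp2 are named as examples.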

Additional observations from a re-analysis of the deposited data

How the results depend on the processing

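For Angptl7 the values against CTL are a description, since the gene was chosen on them. Leaving out 1 library moved its log2 difference between -1.38 and -1.12 in RL against CTL and between -1.28 and -0.81 in CL against CTL. Calls were less stable. In RL against CTL the 77 called genes became 351 with DESeq2, 46 with limma-voom, 896 with no filter on low counts, 505 with the 6 libraries of RL and CTL alone, 290 without the mouse of RL 1 and CL 1, and 2 to 600 with 1 library left out, the highest without CL 1. The single member under the threshold there was Angptl7, chosen on that comparison, so this count describes the fits and is no test of the gene. The count became 0 without RL 1, RL 2, RL 3, CL 3 or any 1 CTL library, so that leaving out 1 library gave 0 to 1. In CL against CTL the 0 called genes became 16 with DESeq2, 714 with no filter, and 0 to 1 with 1 library left out. The 0 called members became 1 with DESeq2, again Angptl7, and 2 with no filter, Angptl7 and Angptl4. With no filter Angptl4 gave 0.93 with an edgeR adjusted p of 2.59e-04. In RL against CL the 11 called genes became 42 with DESeq2, 406 with no filter, 4 with 6 libraries, 20 without the mouse of RL 1 and CL 1, and 1 to 136 with 1 library left out, again highest without CL 1. With mouse as a replicate block there were 62, and the block called no member.

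The sign turned in CL against CTL for Angptl4 without CL 1 (-0.0033), Angptl2 without CL 2 (0.0032) and Angptl6 without CTL 2 (0.0036), and in RL against CTL for Angptl6 without CTL 2 (0.071). With 1 library left out, Angptl4 ran up to 1.51, Angptl2 down to -0.10 and Angptl6 down to -0.29 in CL against CTL, and Angptl6 down to -0.23 in RL against CTL. In RL against CL it turned for Angptl7 without CL 2 (0.034), for Angptl6 without RL 1 (-0.063) or CL 1 (-0.057), and for Angptl4 without CL 1 (0.43). The other ends of these ranges in RL against CL were -0.42 for Angptl7, 0.16 for Angptl6 and -0.85 for Angptl4. Without that mouse it turned for Angptl4 (0.43), Angptl6 (-0.20) and Angpt1 (-0.0023). The cause was not tested. With 3 libraries a group, differences of the size seen for Angptl1, Angptl2 and Angpt1 did not pass a test adjusted over all genes.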

Other observations

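In the authors' deposited tables, 1 for each comparison, Angptl7 had log2 fold changes of -0.74 for RL against CTL, -0.63 for CL against CTL and -0.11 for RL against CL. DESeq2 run here on the deposited counts gave -1.24 for RL and -1.03 for CL against CTL. The deposited values may therefore be on another scale, and the cause of the gap was not tested. The authors' table for RL against CTL gave -0.31 for Angptl2, with an adjusted p of 0.141. For Angpt2 in RL against CL the authors' deposited table gave 0.59, with an adjusted p of 0.318.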
